A study of Homo sapiens with 12 samples.

Results

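The 10 genes described here encode 3 families of actin-binding proteins and 1 regulatory light chain: the tropomyosins TPM1, TPM2, TPM3 and TPM4, the transgelins TAGLN and TAGLN2, the calponins CNN1, CNN2 and CNN3, and the myosin light chain MYL9. They were chosen by name, as the rows whose Ensembl identifier maps to these symbols. Each symbol was found once among 60617 gene identifiers, and all 10 passed the filter on low counts that left 21581 genes to test. RNA was sequenced from A549, an established line of human lung adenocarcinoma cells, 24 h after siRNA transfection. The 3 groups of 4 libraries, given as biological replicates, received a non-targeting siRNA (siCo), a first combination of siRNAs against YAP and TAZ (siYAP/TAZ#1, labelled Y1T2) or a second one (siYAP/TAZ#2, labelled Y2T3). All came from 1 cell line, the labels name no other genotype or agent, and the siRNA sequences are not given in the labels. P-values therefore measure the spread between these libraries of a single line.

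Tropomyosins are coiled-coil dimers that lie end to end along the actin filament and decide which other proteins, such as myosin, cofilin and tropomodulin, can bind it. Calponins and transgelins share a calponin-homology domain and bundle or stabilise actin filaments. MYL9 is a regulatory light chain of non-muscle and smooth-muscle myosin II, and its phosphorylation turns on contraction. TAGLN, CNN1 and MYL9 are classic smooth-muscle genes driven by serum response factor (SRF) and its actin-sensing cofactors, the MRTFs, while TAGLN2, CNN2, CNN3, TPM3 and TPM4 are made in most cell types. YAP and TAZ, products of YAP1 and WWTR1, are coactivators of TEAD transcription factors that respond to tension in this same actin network.

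Totals per library were 29.6 to 38.3, in units of 1e6 estimated counts, so that 10 counts correspond to 0.25 to 0.375 CPM, the count scaled to its library total. Levels below are CPM after TMM scaling, changes are log2 values ± standard error (SE), and every adjusted p is that of the edgeR quasi-likelihood test with Benjamini-Hochberg adjustment over all genes tested. As a check of the labels, the siRNAs left 15.5% (siYAP/TAZ#1) and 14.3% (siYAP/TAZ#2) of YAP1 and 13.7% and 13.5% of WWTR1, with no overlap with siCo. Epithelial markers fitted the labelled cell type: KRT8, KRT18, KRT19, KRT7, EPCAM and CDH1 summed to 6750 to 7672 CPM in siCo. The sum was 5662 to 6367 CPM with siYAP/TAZ#1, below all siCo libraries, and 4652 to 7019 CPM with siYAP/TAZ#2. KRT7 weighed heavily in it, at means of 3657, 2330 and 2028 CPM in the 3 groups, while KRT8 stood at 2383, 2503 and 2511 CPM. Of the 6 epithelial markers, 1 was called lower and 3 higher with siYAP/TAZ#1, beside 18.5% and 16.4% of all genes tested. With siYAP/TAZ#2, 2 were called lower and 3 higher, beside 19.2% and 19%. EPCAM itself stood at only 2.26 CPM in siCo. The 6 smooth-muscle markers (MYH11, DES, LMOD1, SYNPO2, ACTG2, MYOCD) summed to 17.1 to 18.9 CPM in siCo. With siYAP/TAZ#1 the sum was 24.8 to 28.3 CPM and with siYAP/TAZ#2 23.05 to 27.8 CPM. SYNPO2 alone made up most of it, at means of 14.9, 22.97 and 21.8 CPM in the 3 groups. MYH11 stood at 1.96, 1.73 and 1.88 CPM and MYOCD at 0.969, 1.40 and 1.95 CPM, and DES was at 0 in all 4 siCo libraries. The 7 fibroblast markers summed to 105 to 117 CPM in siCo, 141 to 171 CPM with siYAP/TAZ#1 and 103 to 156 CPM with siYAP/TAZ#2. COL1A1 alone made up most of that sum, at means of 110, 153 and 117 CPM. The 5 endothelial and blood markers summed to 24 to 27.3 CPM in siCo, 21.1 to 24.7 CPM with siYAP/TAZ#1 and 22.6 to 27.8 CPM with siYAP/TAZ#2. Most of this was CD68, at 25.1 CPM in siCo. The part of these markers in the results was not tested. Replicate 1 of siYAP/TAZ#2 stood apart. Its deviation from its group's mean rose with the GC content of the transcript (Pearson r = 0.659 across 15305 genes, which are not independent replicates), while the other 3 libraries of that group gave -0.31 to -0.43.

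In control cells the family genes spanned a wide range of levels. Per transcript length, TPM1 was the most abundant at 316 ± 46.7 TPM (SD, n = 4), followed by TAGLN2 at 277 ± 54.6, TPM3 at 188 ± 31.6, TPM4 at 110.5 ± 22.8, CNN2 at 72.6 ± 9.4, TPM2 at 66.8 ± 10.6 and CNN3 at 28.3 ± 6.3 TPM. The 3 smooth-muscle genes came last, with TAGLN at 3.21 ± 0.612, MYL9 at 0.725 ± 0.306 and CNN1 at 0.594 ± 0.38 TPM. Ranges over the 4 libraries overlapped for the neighbours TPM1 and TAGLN2, TAGLN2 and TPM3, CNN2 and TPM2, and MYL9 and CNN1. Within a library the order held in all 4 for every neighbouring pair but one, with TPM1 at 1.06 to 1.30 times TAGLN2 and TAGLN2 at 1.41 to 1.53 times TPM3. The exception was CNN2 above TPM2, which held in 3 libraries at a ratio of 0.969 to 1.23. CNN1 rested on 8 to 28 counts a library and MYL9 on 30 to 105. TPM levels of the 10 genes were compared between groups only as alternatives to the main test. The reason is that 5 rows, led by the microRNA rows MIR3648-1 and MIR3648-2, took much of the TPM total. Their share was 42.9% to 61% in siCo and 24.2% to 53.6% in treated libraries.

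**Figure D1:**
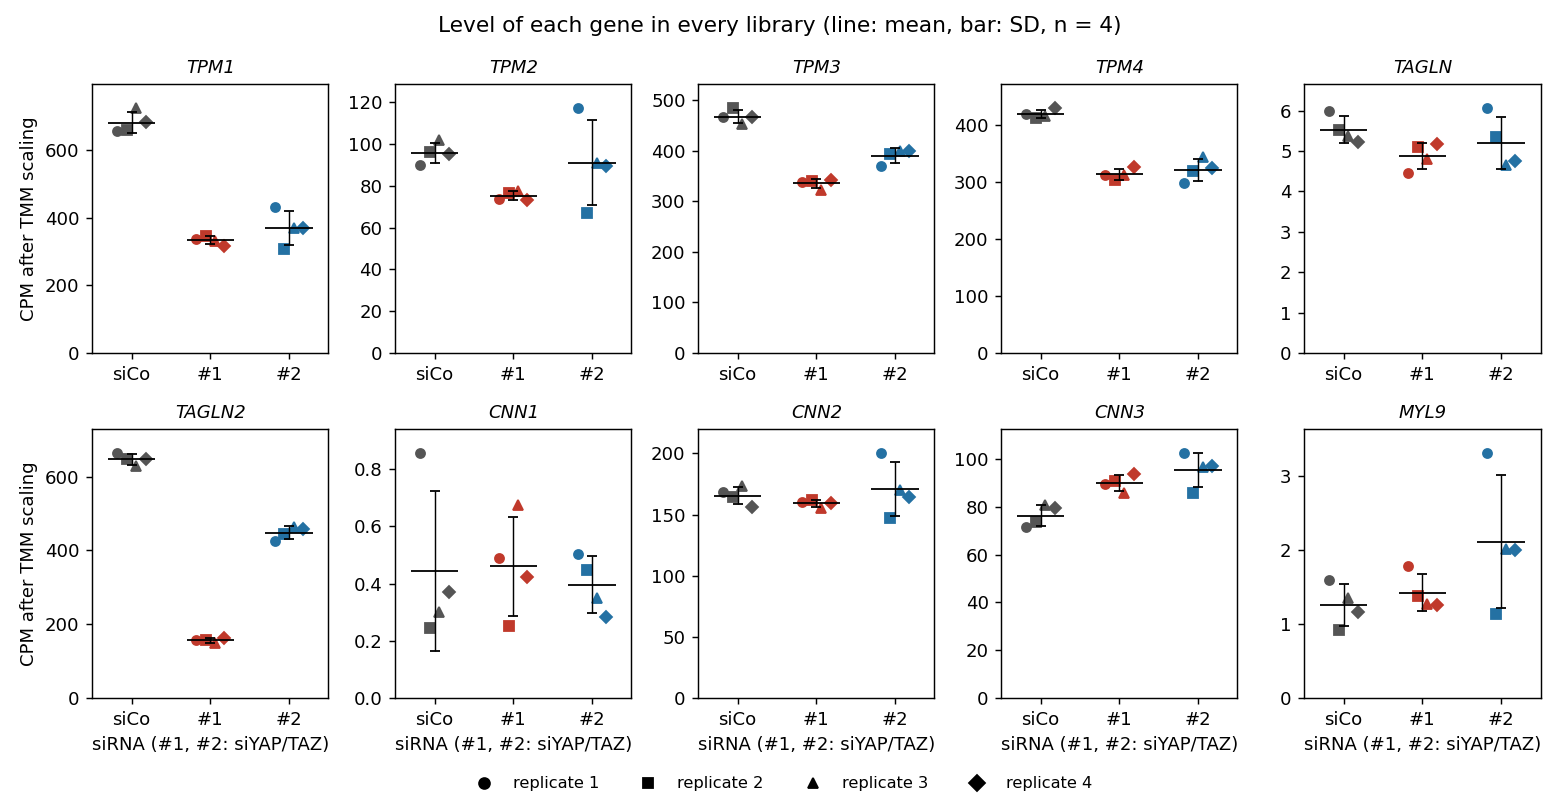
Level of each of the 10 genes in every library, in CPM after TMM scaling on axes that start at 0, with the mean (line) and SD (bar) of 4 libraries per group. TPM1, TPM3, TPM4 and TAGLN2 lie lower in all treated libraries than in all siCo libraries, and CNN3 lies higher. The round marker of replicate 1 with siYAP/TAZ#2 is the highest of its group for TPM1, TPM2, TAGLN, CNN1, CNN2, CNN3 and MYL9 and the lowest for TPM3, TPM4 and TAGLN2.

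With siYAP/TAZ#1, 5 of the 10 genes fell (TPM1, TPM2, TPM3, TPM4 and TAGLN2) and 1 rose (CNN3), where 18.5% of all genes tested were called lower and 16.4% higher. With siYAP/TAZ#2, 4 fell (TPM1, TPM3, TPM4 and TAGLN2) and 2 rose (CNN3 and MYL9), against 19.2% and 19% of all genes. Both comparisons use the same siCo libraries, so their agreement is not independent: 4 genes were called lower with both, against 13.3% of all genes. CNN1, CNN2 and TAGLN passed the test with neither. The median log2 change over the 10 genes was -0.26 and -0.13, beside 0.02 and 0.02 over all genes tested. In bulk RNA, fewer cells making a transcript and less of it per cell cannot be told apart. These calls depend on TMM scaling in 3 places: with library size alone, which moves the median of all genes to 0.20 and 0.21, TPM2 with siYAP/TAZ#1 (-0.17, adjusted p = 0.173) and TPM3 with siYAP/TAZ#2 (-0.07, adjusted p = 0.405) no longer passed, and CNN2 with siYAP/TAZ#2 was called higher (0.22, adjusted p = 0.0049). That scaling called 1905 genes lower and 5876 higher with siYAP/TAZ#1, beside 3999 and 3531 after TMM, and 2037 and 6538 with siYAP/TAZ#2, beside 4144 and 4100.

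**Figure D2:**
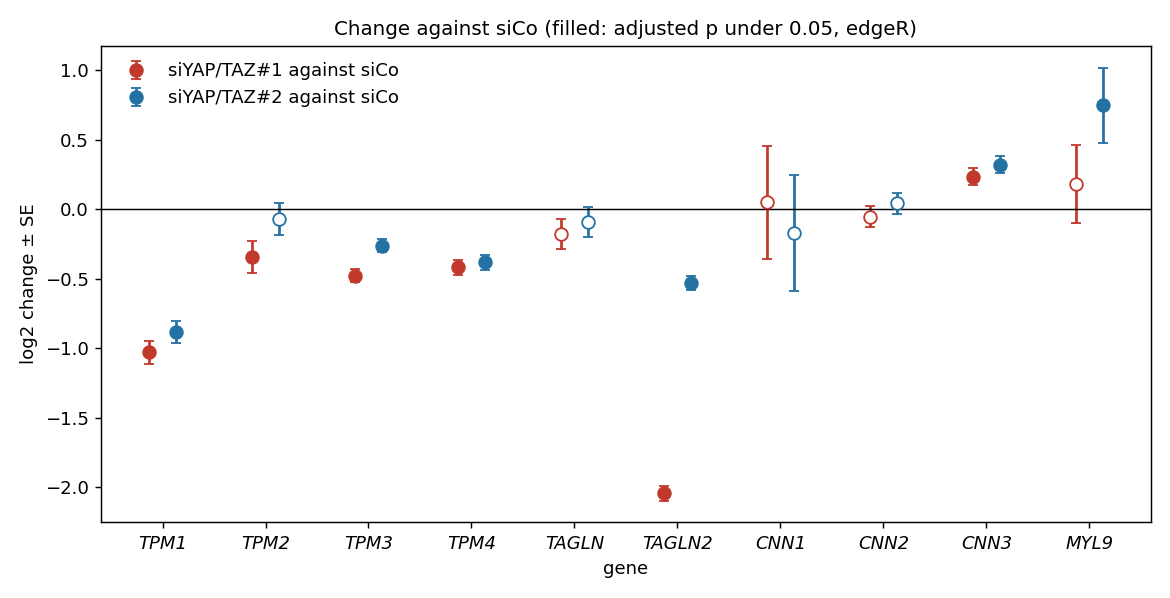
Log2 change ± SE of each gene against siCo for both siRNA combinations, filled where adjusted p was under 0.05. The tropomyosins and TAGLN2 lie at or below 0 and CNN3 above it with both combinations after TMM scaling, while with library size alone TPM2 with siYAP/TAZ#2 lies at 0.11. TAGLN2 shows the widest gap between the combinations (-2.05 and -0.53).

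All 4 tropomyosins fell with siYAP/TAZ#1 and 3 of 4 with siYAP/TAZ#2, and TPM1 had the largest change. TPM1 (ENSG00000140416, GRCh38 chromosome 15, 63042632 to 63071915, plus strand) encodes several tropomyosin isoforms, some of them found in stress fibres, and is known as a brake on transformed growth. It stood at 657, 659, 723 and 682 CPM in siCo, 337, 345, 332 and 317 CPM with siYAP/TAZ#1, and 429.9, 307, 369.5 and 369 CPM with siYAP/TAZ#2. Every treated library was below every siCo library. The log2 change was -1.03 ± 0.080 (adjusted p = 6.10e-08) and -0.88 ± 0.080 (adjusted p = 2.71e-07), which left 48.9% and 54.2% of the siCo level. Between the combinations TPM1 differed by 0.15 ± 0.079 (adjusted p = 0.263), with overlapping libraries. Without replicate 2 of siYAP/TAZ#2, its lowest library, that difference was 0.23 and passed (adjusted p = 0.0278). TPM1-AS overlaps TPM1 on the opposite strand and held 16 to 96 counts a library, beside 10303 to 23968 for TPM1.

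TPM3 (chromosome 1, 154155304 to 154194648, minus strand) and TPM4 (chromosome 19, 16067021 to 16103005, plus strand), the other widely expressed tropomyosins, fell less. TPM3 stood at 466, 484, 453 and 467 CPM in siCo, 337, 339.8, 323 and 343 CPM with siYAP/TAZ#1, and 369, 393, 400.3 and 398 CPM with siYAP/TAZ#2. The 3 groups did not overlap: siYAP/TAZ#2 lay between the other two. Its log2 changes were -0.48 ± 0.050 (adjusted p = 1.53e-06) and -0.26 ± 0.050 (adjusted p = 5.29e-04), and the combinations differed by 0.22 ± 0.050 (adjusted p = 0.0061). TPM4 stood at 418, 412, 415 and 429 CPM in siCo, 311, 303, 312 and 325 CPM with siYAP/TAZ#1, and 297, 319.6, 343 and 324 CPM with siYAP/TAZ#2. It was lower in 8 of 8 treated libraries with log2 changes of -0.42 ± 0.053 and -0.38 ± 0.053 (adjusted p = 1.31e-05 and 2.92e-05). The difference between the combinations was 0.04 ± 0.053 (adjusted p = 0.757). On the deposited TPM values without rescaling, TPM3 and TPM4 with siYAP/TAZ#2 changed sign (0.22 and 0.05) and were not called.

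TPM2 (chromosome 9, 35681992 to 35690121, minus strand), a tropomyosin of muscle and of contractile non-muscle cells, was the exception in the family. It stood at 89.7, 96, 102 and 95 CPM in siCo, 73.5, 76.6, 77.6 and 73.4 CPM with siYAP/TAZ#1, and 117, 67.2, 90.6 and 89.2 CPM with siYAP/TAZ#2. All siYAP/TAZ#1 libraries were below all siCo libraries, whereas the siYAP/TAZ#2 libraries reached from below to above them. The log2 change was -0.35 ± 0.114 (adjusted p = 0.0264) and -0.07 ± 0.113 (adjusted p = 0.678). The first call was lost when any of 5 libraries was left out (siCo replicates 2, 3 and 4, siYAP/TAZ#1 replicates 1 and 4, adjusted p up to 0.071) and on TPM after TMM factors (-0.33, limma adjusted p = 0.0553), and the second value became -0.21 (adjusted p = 0.0377) without replicate 1 of siYAP/TAZ#2. The difference between the combinations was 0.27 ± 0.114 (adjusted p = 0.131).

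Summed over the family, tropomyosin CPM fell from 1662 ± 26.9 in siCo to 1057 ± 8.46 and 1171 ± 57.8 (SD, n = 4). Its composition shifted as well, which a share within a library shows without any scaling between libraries. TPM1 made up 45.7%, 45.4%, 48.6% and 46.2% of tropomyosin TPM in the siCo libraries, 36.8%, 37.9%, 37.1% and 34.2% with siYAP/TAZ#1, and 41.4%, 32.3%, 35.8% and 36% with siYAP/TAZ#2. TPM3 went in mean share from 27.6% to 31.8% and 33.4%, and TPM2 from 9.8% to 12.2% and 12.7%, with no overlap between siCo and treated libraries for either. TPM4 went from 16.1% to 19.5% and 17.5%, and in replicate 1 of siYAP/TAZ#2 it was 13.3%, below all siCo libraries. These shares were not tested; taken from estimated counts in place of TPM they differ in size (TPM1 40.9%, 31.5% and 31.4%, TPM4 25.2%, 29.6% and 27.5%) but TPM1 has the same order of groups.

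**Figure D3:**
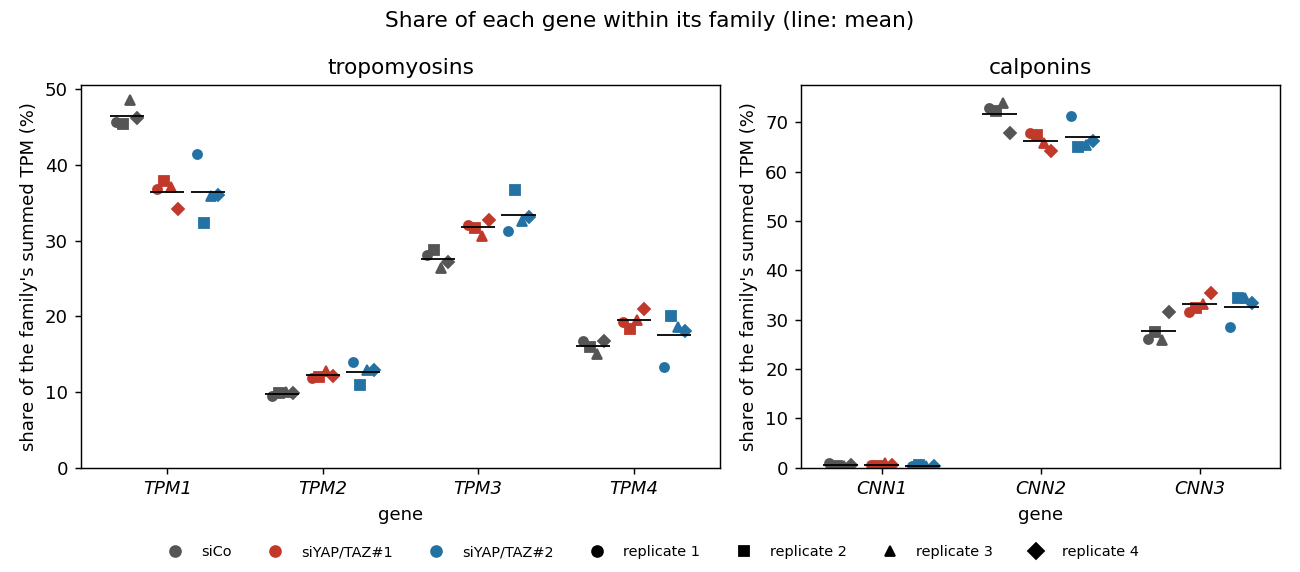
Share of each gene in the summed TPM of its family, in percent, for every library of the tropomyosins (left) and calponins (right), with the group mean as a line. TPM1 lies between 45.4% and 48.6% in siCo and between 32.3% and 41.4% in treated libraries, and the mean share of CNN3 goes from 27.7% to 33.1% and 32.6%.

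Gene-level tables do not separate the many tropomyosin isoforms. As a partial view, counts per TPM give the effective length of the transcripts that carried a gene's reads, here divided by the median over 9280 genes of the same library. For TPM1 this relative length was 0.705 to 0.744 in siCo. With siYAP/TAZ#1 it was 0.720 to 0.754, and siYAP/TAZ#2 libraries gave 0.652 to 0.751, so that the groups overlapped. TPM2 (0.477 to 0.489 in siCo and 0.491 to 0.504 with siYAP/TAZ#1) did not overlap between those groups, at means of 0.484 and 0.496. With siYAP/TAZ#2 it was 0.483 to 0.525, which overlapped siCo. TAGLN2 did not overlap between siCo (0.782 to 0.801) and siYAP/TAZ#1 (0.777 to 0.779) either. The share of all genes without such overlap was not computed. Replicate 1 of siYAP/TAZ#2 was again apart, with the lowest value for TPM1 (0.652) and TPM3 (0.741) and the highest for TPM4 (1.4). TPM3 has 9 and TPM4 3 processed copies in the tables, which together held at most 3.4% and 6.33% of the TPM of their parent in any library, so a part of those reads may have been divided between them.

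For promoters, RefSeq windows on GRCh38.p14 from 250 bases before to 50 after a start site were searched on both strands for the TEAD core GGAATG, the AP-1 site TGANTCA and the CArG box bound by SRF. These motifs do not overlap in the windows printed. Of 35116 such windows, 14% held the TEAD core, 7.71% the AP-1 site and 1.29% a CArG box. Windows were found for 8 of the 10 genes (15 windows), and TAGLN and MYL9 had none. The TEAD core was in 1 of the 15, the AP-1 site in 2 and a CArG box in 2, and no window of TPM1, TPM2, TPM3 or CNN1 held any of these letters. A match is a description of letters, not evidence of binding. The 5 windows with a match are printed beside their genes, 5′ to 3′ on the gene's strand, with the match in capitals. In the tropomyosins the only match was a CArG box in 1 of 3 windows of TPM4 (chr19:16067288-16067587, plus strand), beginning at position -173 from the start site; TPM4 fell by 0.42 and 0.38 on the log2 scale.
TPM4: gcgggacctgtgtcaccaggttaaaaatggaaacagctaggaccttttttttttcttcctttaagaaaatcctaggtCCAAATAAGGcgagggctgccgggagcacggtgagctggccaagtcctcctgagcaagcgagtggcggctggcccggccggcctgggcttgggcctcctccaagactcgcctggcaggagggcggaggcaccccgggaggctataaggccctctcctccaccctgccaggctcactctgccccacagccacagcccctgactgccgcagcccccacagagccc

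The transgelins were dominated by TAGLN2, whose fall with siYAP/TAZ#1 was the largest in all 10 genes. TAGLN2 (ENSG00000158710, chromosome 1, 159918107 to 159925732, minus strand) is the widely expressed transgelin and stabilises actin filaments. It stood at 664, 647, 629 and 646 CPM in siCo, 158, 157, 148 and 163 CPM with siYAP/TAZ#1, and 426, 443, 464 and 458 CPM with siYAP/TAZ#2. The 3 groups were far apart, each with little spread. The log2 change was -2.05 ± 0.053 (adjusted p = 2.04e-13) with siYAP/TAZ#1 and -0.53 ± 0.051 (adjusted p = 5.56e-07) with siYAP/TAZ#2, which left 24.2% and 69.3% of the siCo level. The 2 combinations differed in TAGLN2 by 1.52 ± 0.052 on the log2 scale (adjusted p = 1.64e-11), a 2.86-fold higher level with siYAP/TAZ#2. YAP1 and WWTR1 themselves differed by -0.11 ± 0.069 and -0.02 ± 0.062 between the combinations (adjusted p = 0.367 and 0.897). TAGLN2 could be compared with TPM1 in the same library: the ratio of their counts was 0.952 ± 0.060 in siCo, 0.471 ± 0.031 with siYAP/TAZ#1 and 1.23 ± 0.186 with siYAP/TAZ#2 (SD, n = 4). Leaving out each of the 12 libraries in turn moved the difference only between 1.49 and 1.55.

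The 2 TAGLN2 promoter windows that hold an AP-1 site are printed here, and the third window of the gene held no match. The first (chr1:159925458-159925757, minus strand) has it 24 bases after the start site, and the second (chr1:159924546-159924845, minus strand) at position -49. Neither holds the TEAD core or a CArG box.
TAGLN2 window 1: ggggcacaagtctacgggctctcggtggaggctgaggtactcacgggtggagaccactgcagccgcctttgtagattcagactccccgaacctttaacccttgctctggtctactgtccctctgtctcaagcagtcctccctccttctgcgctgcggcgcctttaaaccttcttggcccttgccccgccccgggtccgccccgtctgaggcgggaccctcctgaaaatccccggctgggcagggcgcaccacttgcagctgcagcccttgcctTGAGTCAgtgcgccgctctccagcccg
TAGLN2 window 2: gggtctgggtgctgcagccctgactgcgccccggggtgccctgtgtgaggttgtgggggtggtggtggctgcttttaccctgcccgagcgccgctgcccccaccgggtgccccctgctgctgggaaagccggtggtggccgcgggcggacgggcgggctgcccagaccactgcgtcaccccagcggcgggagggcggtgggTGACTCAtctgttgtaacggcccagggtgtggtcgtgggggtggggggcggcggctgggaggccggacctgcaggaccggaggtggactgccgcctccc

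TAGLN, also called SM22-alpha and an early marker of smooth-muscle differentiation, was low throughout and was not called. It stood at 6, 5.51, 5.36 and 5.24 CPM in siCo, 4.47, 5.1, 4.8 and 5.17 CPM with siYAP/TAZ#1, and 6.06, 5.34, 4.65 and 4.76 CPM with siYAP/TAZ#2. The siYAP/TAZ#1 libraries were all just below the siCo libraries, but the change of -0.18 ± 0.107 did not pass (adjusted p = 0.225), nor did -0.09 ± 0.107 with siYAP/TAZ#2 (adjusted p = 0.566). TAGLN lies at chromosome 11, 117199321 to 117204782, and its end overlaps PCSK7 on the opposite strand by 446 bases. PCSK7 held 1462 to 1877 counts a library and TAGLN 143 to 196, and without stated strandedness reads from the shared stretch cannot be told apart. The share of TAGLN in transgelin TPM went from 1.15% ± 0.054 in siCo to 3.47% ± 0.626 and 1.42% ± 0.226 (SD, n = 4). In a family of 2 genes this share rises when TAGLN2 falls. TAGLN itself stood at means of 5.53, 4.88 and 5.20 CPM in the 3 groups, and TAGLN2 at 646, 157 and 448 CPM.

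No calponin was called lower. CNN3 (chromosome 1, 94896949 to 94927278, minus strand), the acidic calponin found in many non-muscle cells, rose slightly with both combinations. It stood at 71.6, 73.6, 80.6 and 79.3 CPM in siCo, 89.4, 90.6, 85.6 and 93.7 CPM with siYAP/TAZ#1, and 102, 85.5, 96.6 and 96.9 CPM with siYAP/TAZ#2. All 8 treated libraries were above all siCo libraries. The log2 change was 0.24 ± 0.064 (adjusted p = 0.0083) and 0.32 ± 0.064 (adjusted p = 7.30e-04), and the difference between the combinations was 0.09 ± 0.064 (adjusted p = 0.458). CNN2 (chromosome 19, 1026581 to 1039068, plus strand), the calponin of motile non-muscle cells, stood at 169, 164, 173 and 156 CPM in siCo, 161, 162, 155 and 159.5 CPM with siYAP/TAZ#1, and 200.3, 147, 170.4 and 164 CPM with siYAP/TAZ#2. Its groups overlapped, and the changes of -0.05 ± 0.075 and 0.04 ± 0.075 did not pass (adjusted p = 0.629 and 0.706), although with library size alone CNN2 was called higher with siYAP/TAZ#2 (0.22, adjusted p = 0.0049). The summed calponin level was 242 ± 8.14 CPM in siCo and 250 ± 5.54 and 266 ± 28.7 CPM with the 2 combinations. CNN3 took a mean of 33.1% and 32.6% of calponin TPM against 27.7% in siCo, with overlap through replicate 4 of siCo (31.5%) and replicate 1 of siYAP/TAZ#2 (28.5%).

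CNN2, which was not called, and CNN3, which rose, are the other 2 genes with a match. In CNN2 (chr19:1026358-1026657, plus strand) a CArG box begins at position -89, and in the second of 2 windows of CNN3 (chr1:94925720-94926019, minus strand) the TEAD core, read on the other strand, begins at position -142. They are printed because they hold a match, and a link between a match and a change in level was not tested.
CNN2: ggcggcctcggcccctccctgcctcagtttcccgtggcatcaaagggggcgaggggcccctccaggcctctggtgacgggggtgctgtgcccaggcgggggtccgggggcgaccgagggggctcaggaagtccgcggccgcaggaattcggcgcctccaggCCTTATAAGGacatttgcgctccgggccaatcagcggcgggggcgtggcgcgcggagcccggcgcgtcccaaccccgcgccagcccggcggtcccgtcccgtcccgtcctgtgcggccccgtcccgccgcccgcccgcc
CNN3 window 2: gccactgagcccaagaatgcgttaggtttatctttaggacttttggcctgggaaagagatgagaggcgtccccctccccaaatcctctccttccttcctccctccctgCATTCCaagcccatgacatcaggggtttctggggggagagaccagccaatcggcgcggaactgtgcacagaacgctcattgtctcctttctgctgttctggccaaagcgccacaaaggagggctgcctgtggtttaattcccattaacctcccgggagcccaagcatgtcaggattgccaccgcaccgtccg

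CNN1, the smooth-muscle calponin, was near the limit of detection. It ranged from 0.246 to 0.857 CPM in siCo, while siYAP/TAZ#1 libraries lay between 0.254 and 0.675 CPM and siYAP/TAZ#2 libraries between 0.282 and 0.505 CPM. The changes of 0.05 ± 0.407 and -0.17 ± 0.417 did not pass (adjusted p = 0.938 and 0.791), and with SEs this wide a change of the size seen in most of the other genes was not detectable at this depth. MYL9 (chromosome 20, 36541484 to 36551447, plus strand) stood at 1.59, 0.924, 1.35 and 1.17 CPM in siCo, 1.79, 1.38, 1.27 and 1.27 CPM with siYAP/TAZ#1, and 3.32, 1.13, 2.01 and 2 CPM with siYAP/TAZ#2. The groups overlapped, and replicate 1 of siYAP/TAZ#2 was the highest of all 12. The change was 0.18 ± 0.278 (adjusted p = 0.668) with siYAP/TAZ#1 and 0.75 ± 0.272 with siYAP/TAZ#2, which passed narrowly (adjusted p = 0.0401). Without that replicate it was 0.46 (adjusted p = 0.143), and leaving out siCo replicate 2, 3 or 4, siYAP/TAZ#1 replicate 3, or siYAP/TAZ#2 replicate 3 or 4 also ended the call (adjusted p from 0.0514 to 0.116). MYL9 lies wholly inside DLGAP4-AS1 on the opposite strand, a gene of 4 to 22 counts a library, and the reads of the 2 cannot be told apart where strand is not recorded. MYL9 is also close in sequence to MYL12A and MYL12B, so how its few reads were assigned is uncertain.

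Between the siRNA combinations directly, 2 of the 10 genes were higher with siYAP/TAZ#2 (TPM3 and TAGLN2) and none lower, where 8.2% of all genes tested were higher and 6.92% lower by the same rule. The median difference was 0.12 over the 10 genes and 0.01 over all genes. None of the 10 was lower at an unadjusted p under 0.05 either, and DESeq2 also called 0 lower.

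The partners of these proteins on the filament were read from 5 lists holding 64 genes, of which 60 were tested. With siYAP/TAZ#1, 32 were lower and 8 higher, and with siYAP/TAZ#2, 21 were lower and 11 higher, at medians of -0.24 and -0.11 beside 0.02 and 0.02 over all genes. Of all genes tested, 18.5% were called lower and 16.4% higher with siYAP/TAZ#1, and 19.2% and 19% with siYAP/TAZ#2, so the counts of higher genes lie near the background. With both, 17 were lower, beside 13.3% of all genes. A further 7 were higher with both and 1 moved in opposite directions. The shares of all genes for these last 2 counts were not computed, so they cannot be set against a background. Among 26 filament partners, 25 were tested, and 13 fell and 4 rose with siYAP/TAZ#1 while 8 fell and 4 rose with siYAP/TAZ#2; the shares of all genes called higher, 16.4% and 19%, are close to these counts of 4. Tropomodulins cap the slow-growing end of tropomyosin-coated filaments, and 2 of them rose: TMOD1 changed by 1.20 ± 0.190 and 1.33 ± 0.190, and TMOD2 by 0.99 ± 0.0987 and 0.76 ± 0.0996. All 4 values had an adjusted p of at most 1.15e-04. TMOD3, named after its values were seen, was not called with either combination.

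Of the 6 actin isoforms 3 were tested. The smooth-muscle isoform ACTA2 rose from 11.5 ± 0.778 CPM in siCo to 19.4 ± 1.08 and 27.9 ± 2.17 CPM (0.75 ± 0.078 and 1.28 ± 0.077, adjusted p = 1.33e-06 and 3.15e-09). Cytoplasmic ACTG1 fell from 4891 ± 51.7 to 3916 ± 186 and 2724 ± 123 CPM (-0.32 ± 0.054 and -0.84 ± 0.055, adjusted p = 2.13e-04 and 6.49e-09). ACTB changed by -0.24 ± 0.070 with siYAP/TAZ#1 (adjusted p = 0.0146) and -0.09 ± 0.070 with siYAP/TAZ#2 (adjusted p = 0.35). ACTA2 and ACTG1 thus moved more with siYAP/TAZ#2 than with siYAP/TAZ#1 (0.52 and -0.52, adjusted p = 9.45e-05 and 3.35e-06), the reverse of TAGLN2.

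Among 9 myosin II genes, 4 fell and 1 rose with siYAP/TAZ#1, and 3 fell and 2 rose with siYAP/TAZ#2, beside 18.5% of all genes lower and 16.4% higher, and 19.2% and 19%. The non-muscle heavy chain MYH9 fell with both (-0.63 ± 0.103 and -0.64 ± 0.103, adjusted p = 1.51e-04 and 1.22e-04), and MYH14, the heavy chain of epithelia, rose (0.43 ± 0.122 and 0.47 ± 0.122, adjusted p = 0.0109 and 0.0057). MYLK, the kinase that phosphorylates MYL9, fell from 222 ± 7.68 CPM to 141 ± 7.96 and 99.95 ± 8.78 CPM (-0.65 ± 0.066 and -1.15 ± 0.066, adjusted p = 1.09e-06 and 1.81e-09). Of 16 contractility regulators, 10 fell and 1 rose with siYAP/TAZ#1, and 4 fell and 3 rose with siYAP/TAZ#2. The latter counts lie near the 19.2% and 19% of all genes, while 18.5% of all genes were lower with siYAP/TAZ#1. RND3, an antagonist of RhoA, fell (-0.97 ± 0.079 and -0.71 ± 0.078, adjusted p = 1.00e-07 and 2.39e-06), as did the formin DIAPH3 (-0.60 ± 0.072 and -0.29 ± 0.072, adjusted p = 7.91e-06 and 0.0048). RHOB fell with siYAP/TAZ#1 and rose with siYAP/TAZ#2 (-0.53 ± 0.102 and 0.64 ± 0.102, adjusted p = 6.50e-04 and 1.00e-04), from 290.1 ± 29.5 CPM to 201 ± 9.34 and 454 ± 81.3 CPM.

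Of 7 genes for SRF, the MRTFs and related factors, 3 fell and 1 rose with siYAP/TAZ#1, and 5 fell and 1 rose with siYAP/TAZ#2, where 18.5% and 19.2% of all genes were called lower and 16.4% and 19% higher. SRF itself fell by 0.92 ± 0.086 and 0.54 ± 0.085 on the log2 scale (adjusted p = 4.83e-07 and 9.42e-05). The ternary complex factor ELK3 fell by 1.22 ± 0.052 and 0.80 ± 0.052 (adjusted p = 9.22e-11 and 6.49e-09), and ELK4 by 0.26 ± 0.072 and 0.42 ± 0.072 (adjusted p = 0.0089 and 2.28e-04).

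**Figure D4:**
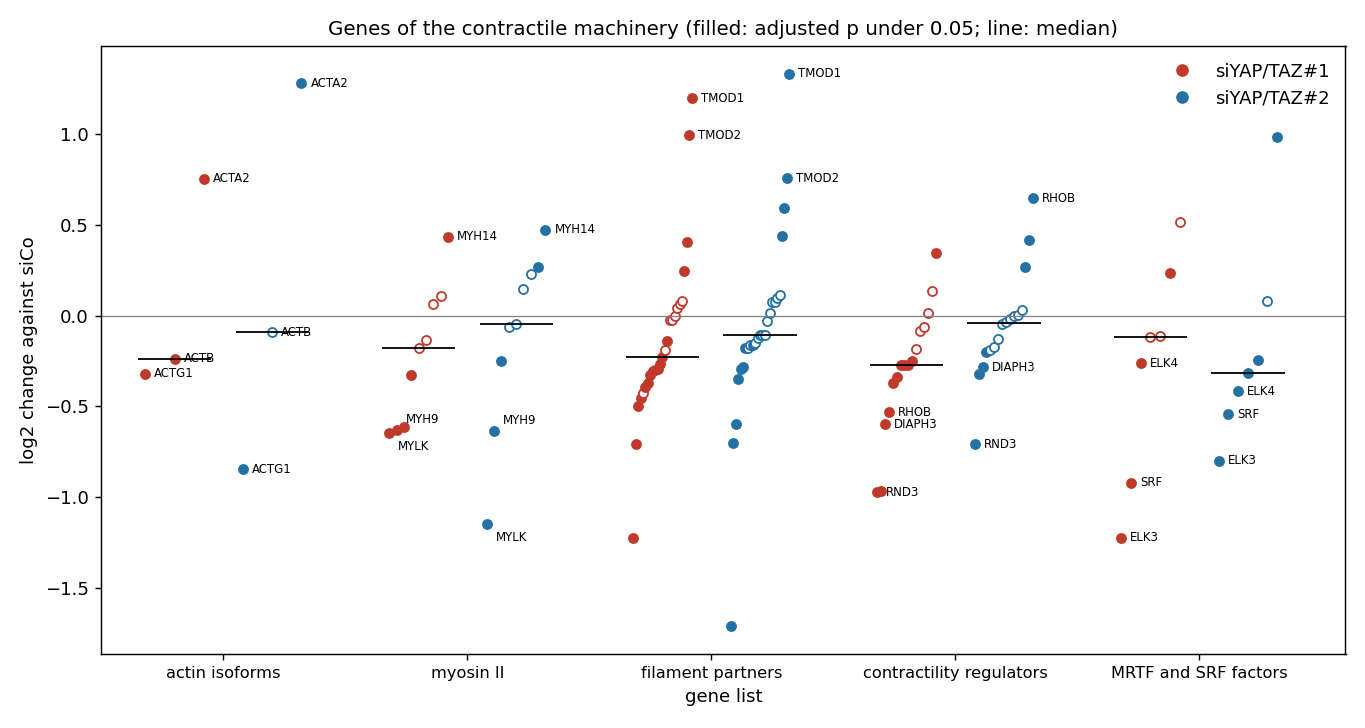
Log2 change against siCo after TMM scaling of the 60 tested genes in 5 lists of actin filament partners, each point a gene, filled where adjusted p was under 0.05, with the list's median as a line and the genes named in the text labelled. More points lie below 0 than above it with siYAP/TAZ#1, and TMOD1 is the highest point with both combinations.

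Across the 12 libraries, the genes whose log2 CPM ran most like each member called with both combinations were sought among 9941 genes with a mean of at least 10 CPM. TPM1 was closest to CHST11, a chondroitin sulfotransferase, and to MTDH (Pearson r = 0.996 and 0.993, n = 12). TPM3 was closest to the sulfate transporter SLC26A2 and to NOL10 (r = 0.991 and 0.990), and TPM4 to the RNA helicase DHX15 and the kinase STK17B (r = 0.995 and 0.994). TAGLN2 was closest to CRIM1, a transmembrane antagonist of bone morphogenetic proteins, and to EAF1 (r = 0.998 and 0.997). CNN3 was closest to TSPAN18 and HCFC1R1 (r = 0.969 and 0.959). The 12 points share their libraries, their scaling and the 3 group means.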

How the data were processed

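RNA of 12 A549 libraries (3 groups of 4) was analysed from 2 deposited tables per library, which list the same 60617 genes. The first holds estimated counts, deposited by the authors without scaling. The second holds the authors' deposited TPM values. Trim Galore 0.6.4, kallisto 0.4.6 and GRCh38.p13 are listed, per the submitters' processing notes, without saying what each was used for. How strand was treated, which annotation was used and how transcripts became genes is not given in the sources used here. Total RNA was taken 24 h after transfection with an integrity number above 7, per the labels' protocols.

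Rounded estimated counts went into edgeR 4.0.16 (R 4.3.3), with TMM scaling, the default filterByExpr, group as the only term over all 12 libraries, the quasi-likelihood F test and Benjamini-Hochberg adjustment over 21581 genes, with a call at adjusted p under 0.05. The biological coefficient of variation was 0.105. The step was also tested on simulated data. Within groups, Pearson r of log2 CPM was 0.976 to 0.989, and chi-square per degree of freedom between libraries of a group was at least 3.66, so all 12 were kept as separate. Alternatives were other scalings, DESeq2 1.42.0, limma 3.58.1 on log2(TPM + 1) and log2(TPM + 0.1), no filter, only the groups compared, a replicate block and each library left out. TPM after TMM factors, GC offsets and relative length were added after seeing the data.

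The members and lists were chosen with earlier results of these data known. Named genes are all 10 members, the targets, from each list the 3 genes with the lowest larger adjusted p of the 2 comparisons plus any called in opposite directions, and for each member called with both combinations the 2 genes of highest r. A gene that this rule requires is withheld and not reported here. Symbols came from a table that matched 60357 identifiers; gene coordinates are GENCODE v29 on GRCh38, 1-based.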

Additional observations from a re-analysis of the deposited data

Results flagged for a closer look

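Of the 10 genes, 2 differed between the siRNA combinations in a direct test of the difference. TAGLN2 was 1.516 higher on the log2 scale with siYAP/TAZ#2 than with siYAP/TAZ#1 (edgeR adjusted p = 1.64e-11), and all 4 siYAP/TAZ#2 libraries were above all 4 siYAP/TAZ#1 libraries. TPM3 was 0.217 higher (edgeR adjusted p = 0.0061), again in 4 of 4 libraries, and missed the threshold without a filter on low counts (adjusted p = 0.051). In 36 groups of 4 libraries, for the 10 genes, YAP1 and WWTR1, no library stood outside Dixon's limit.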

How the results depend on the processing

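TPM1, TPM4 and TAGLN2 were called lower with both combinations, and CNN3 higher, by edgeR under every scaling tried and by DESeq2. The same held without a filter, with only the groups compared, with GC offsets and on TPM after TMM factors. It also held without any 1 of the 12 libraries. Limma on unscaled TPM was the exception. There TPM + 1 called 2 genes lower and 0 higher with siYAP/TAZ#1, 0 lower with siYAP/TAZ#2 and 1 higher between the combinations; TPM + 0.1 called 1, 0, 0 and 1, and 1 higher with siYAP/TAZ#2; TPM + 1 with no filter called 1, 0, 0 and 1, and 0 higher with siYAP/TAZ#2. Signs also changed on TPM + 1, with or without the filter, for CNN2 with siYAP/TAZ#1 (0.234) and, with siYAP/TAZ#2, TPM2 (0.308), TPM3 (0.22), TPM4 (0.0506), TAGLN (0.164) and CNN1 (0.0281), and on TPM + 0.1 likewise (0.237, 0.312, 0.221, 0.0508, 0.203 and 0.115). Unscaled TPM moved the median of all genes tested to 0.25 and 0.31 (TPM + 1). With library size alone CNN2 with siYAP/TAZ#1 (0.122) and TPM2, TAGLN and CNN1 with siYAP/TAZ#2 (0.106, 0.0934 and 0.0033) changed sign. The count of genes higher with siYAP/TAZ#2 was 1 with only the groups compared and on TPM after TMM factors, and 1 to 2 with a library left out; without a filter 1 was higher between the combinations. Leaving out a library gave 2 to 5 genes higher between them (5 without replicate 2 of siYAP/TAZ#2), and changed the sign of CNN1 (-0.20 to 0.583, -0.372 to 0.364 and -0.419 to 0.0265 for siYAP/TAZ#1, siYAP/TAZ#2 and their difference), of CNN2 with siYAP/TAZ#2 (-0.0379 to 0.108) and of TPM2 with siYAP/TAZ#2 (-0.21 to 0.0511); the cause was not tested. In the fit with a replicate block the counts were 5 lower and 1 higher with siYAP/TAZ#1 and 4 and 2 with siYAP/TAZ#2, and no call among the 10 genes changed; deviations of same-numbered libraries correlated at -0.14 to 0.19 over 12 such pairs, and in 5 of the 12 the best match had the same number, so the numbers were not taken to pair samples. GC offsets added 1 call, TPM2 between the combinations (adjusted p = 0.0303). Counts of 8 to 28 for CNN1 and 30 to 105 for MYL9 limit what could be measured.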
